A study of Mus musculus with 6 samples.

Results

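Complex I of the mitochondrial respiratory chain was examined at the level of its nuclear transcripts in whole FVB mouse embryos of embryonic day 10.5, in diabetes-exposed embryos and in embryos of normal pregnancies. Members were the probe sets annotated to exactly 1 gene symbol that names a subunit (Ndufa, Ndufb, Ndufc, Ndufs or Ndufv followed by a number) or a numbered assembly factor (Ndufaf). The rule found 83 probe sets among 45037, of which 73 read subunits and 10 read assembly factors. They stood for 43 genes among 18193, namely 35 subunit genes and 8 assembly factor genes. After the dimmest 33.3% of all probe sets had been set aside, 79 member probe sets and 42 member genes were tested. The exception was Ndufb4, a subunit of the distal membrane arm, whose probe set gave signals of 16.9, 31.0 and 12.8 in the diabetes-exposed pools and 39.2, 31.3 and 30.0 in the control pools.

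The diabetes-exposed embryos came from FVB dams of 7 to 9 weeks that had received 2 injections of 100 mg streptozotocin per kg body weight within 1 week, a toxin of pancreatic beta cells, and whose blood glucose exceeded 250 mg per dl. The control embryos came from FVB dams that were not diabetic. Embryos without visible malformation were used, and RNA of 3 embryos from different pregnancies was combined into each pool, so that 3 diabetes-exposed pools and 3 control pools stood for 9 embryos each, with 1 Affymetrix array per pool. Pooling leaves the spread among single embryos unseen. Streptozotocin was given to 1 group only, so that its own part cannot be told apart from that of the diabetes that followed.

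Complex I passes electrons from NADH to ubiquinone and pumps protons across the inner mitochondrial membrane. It is built from a peripheral arm, in which the N module oxidises NADH and the Q module reduces ubiquinone, and from a membrane arm with a proximal and a distal part that holds the proton pumps. A small set of core subunits, shared with the bacterial enzyme, carries the flavin, the iron-sulfur clusters and the proton channels, and the core subunits of the pumps are encoded by mitochondrial DNA. The many accessory subunits around this core are encoded in the nucleus. Assembly factors join and modify the modules and are not part of the finished enzyme. In embryos of about this stage respiration takes over from glycolysis as the placental circulation is established.

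The arrays of the 2 groups differed in ways that bear on all values below. On poly-A spikes, bacterial RNAs that are added before labelling, the ratio of 3' to middle signal was 6.56, 3.47 and 7.00 in the diabetes-exposed pools and 2.10, 2.07 and 2.52 in the control pools. For the probe sets of beta-actin the ratio of 3' to 5' signal was 10.1, 3.10 and 10.3 in the diabetes-exposed pools and 1.71, 1.76 and 2.19 in the control pools. Diabetes-exposed pools 1 and 3 thus stood apart, and pool 2 lay nearer to the controls. Markers of heart, blood and neural tube were detected. Their counts stand beside 17.6% higher and 19.9% lower in the exposed pools among all 13956 genes tested (limma, adjusted p under 0.05). Of 20 cardiomyocyte markers, 15 were higher and 1 was lower in the exposed pools (summed signal 57033 to 60912 in the exposed pools and 30796 to 37823 in the control pools), and of 10 neural tube markers 1 was higher and 8 were lower (12887 to 14877 in the exposed pools and 17214 to 18579 in the control pools). Of 9 erythroid markers measured of 12 listed, 0 were higher and 2 were lower (78038 to 97016 in the exposed pools and 81726 to 89327 in the control pools). Decidual Prl8a2 read 39.0, 39.3 and 30.7 in the exposed pools and 6522, 5699 and 6412 in the control pools. It was 1 of 4 decidua and placenta markers measured of 12 listed, of which 1 was higher and 1 was lower (529.2 to 599 in the exposed pools and 6034.5 to 6938 in the control pools). The part of these differences in the results was not tested, except where a value is given with the spike ratio in the model or without pools 1 and 3. In bulk RNA, more cells of a type and more RNA per cell cannot be told apart.

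Transcripts of complex I were broadly more abundant in the diabetes-exposed pools. Of 34 subunit genes tested, 29 had risen, 0 had fallen and 5 did not pass the test (limma, adjusted p under 0.05). Among all 13956 genes tested, 17.6% had risen and 19.9% had fallen. The median log2 fold change over subunits was 0.71, with a range of -0.12 to 1.26, beside a median of 0.00 over all genes. For 30 subunits every exposed pool lay above every control pool, which held for 25.9% of all genes, and for 0 subunits every exposed pool lay below, which held for 26.5% of all genes. Of the 8 assembly factor genes, 6 had risen, 0 had fallen and 2 did not pass the test, with a median of 0.50. Bright genes in general leaned the same way: of 825 genes with a mean signal between the lower and upper quartiles of the subunits, 52.6% had risen. Their median log2 fold change was 0.29, and for 499 of the 825 every exposed pool lay above every control pool. When the spike ratio entered the model as a covariate, which leaves 3 residual degrees of freedom, 0 subunits and 0 assembly factors passed the test (20 subunits at an unadjusted p under 0.05), and the medians were 0.30 and 0.42. Among all 13956 genes that fit called 11 higher and 241 lower. The spike ratio of every exposed pool lay above that of every control pool, so this covariate is confounded with the group. By the methods' t-test 0 of either class passed after adjustment (27 subunits at an unadjusted p under 0.05), beside 54 higher and 236 lower among all genes.

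**Figure D1:**
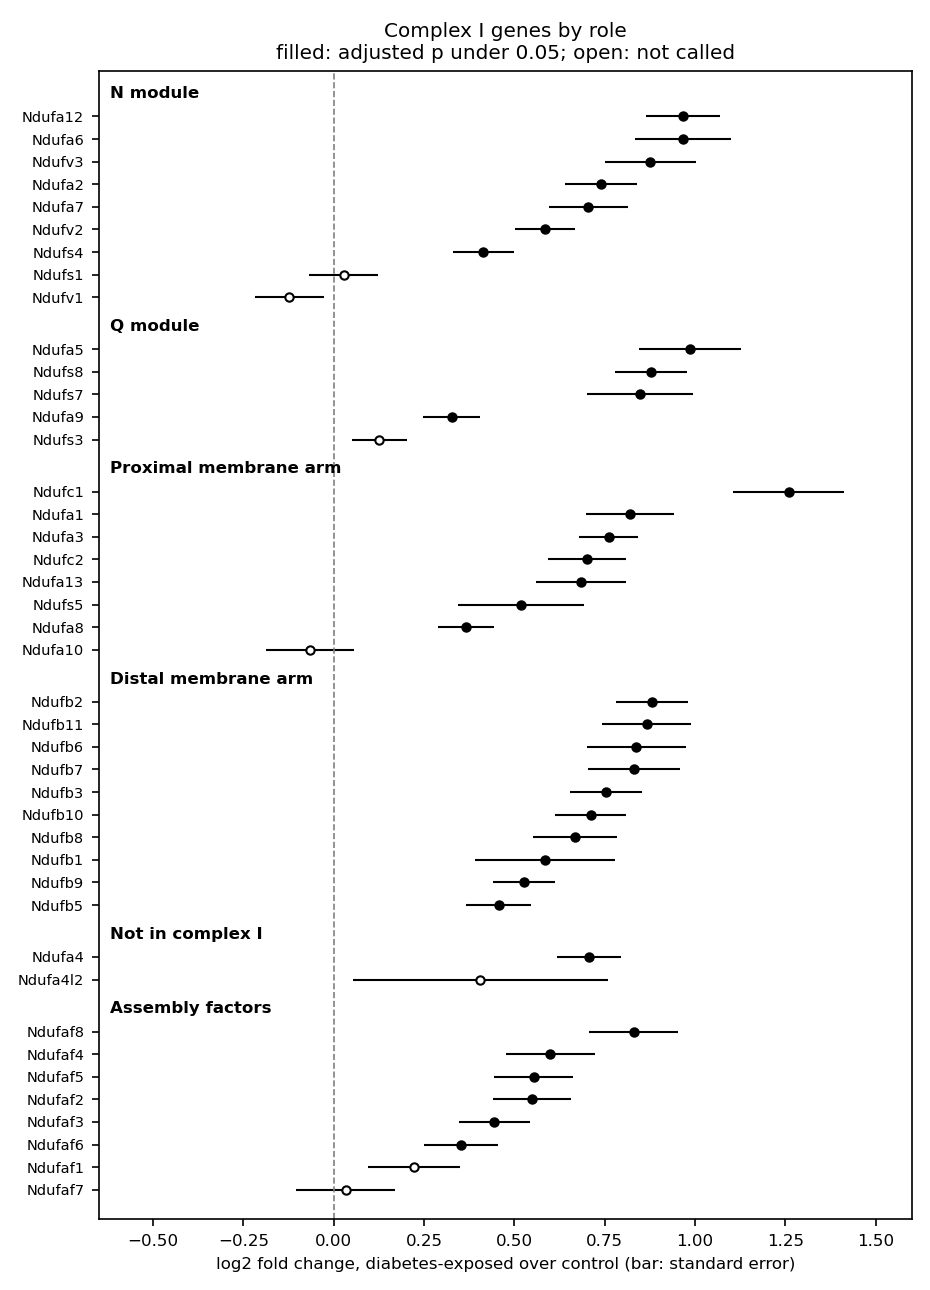
Log2 fold change of each tested complex I gene, diabetes-exposed over control, with its standard error as a bar (3 pools per group), ordered by module and by size within a module. Filled points passed the test and open points did not; all 10 genes of the distal membrane arm are filled, and the open points of the peripheral arm are Ndufs1, Ndufv1 and Ndufs3.

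The start regions of the member genes were read for short words bound by known regulators of respiratory genes. RefSeq promoter windows of assembly GRCm38.p6, from 250 bases before to 50 after the start site, were found for 38 of the 43 genes, 31 subunits and 7 assembly factors. The words searched on both strands were GCATGCGC (NRF1), CCGGAAGT (GABPA), AAGATGGC (YY1) and CAAGGTCA (ERR). The YY1 word stood in 6 of 31 subunit genes (19.4%) and in 1 of 7 assembly factor genes (14.3%), beside 3.19% of 27025 genes with such a window. In all 7 it lay downstream of the start site, its first base between positions 11 and 39. It holds the letters ATG, as a start codon does, and translation starts were not mapped here. It is shown because it was the word found in the most member genes, a choice made after the counts were seen. The stretches are given 5' to 3' on the gene's strand, with the word in capitals.
Ndufc1 (chr3:51408915-51408944, minus strand): gcctgcggaacAAGATGGCgccgtccgtag
Ndufa3 (chr7:3617384-3617413, plus strand): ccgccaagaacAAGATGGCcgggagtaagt
Ndufs7 (chr10:80249462-80249491, plus strand): aggccgaggccAAGATGGCggcgctggcgg
Ndufa9 (chr6:126849097-126849126, minus strand): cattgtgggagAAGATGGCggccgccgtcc
Ndufb8 (chr19:44555393-44555415, minus strand): cggagaaggtgAAGATGGCtgcc
Ndufs4 (chr13:114388045-114388070, minus strand): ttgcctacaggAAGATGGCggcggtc
Ndufaf8 (chr11:120098933-120098962, plus strand): aggcagggcccAAGATGGCggcgccctcga

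All 6 subunits that hold the YY1 word had risen, with a median log2 fold change of 0.71, and of the 24 tested subunits with a window that lacks it 21 had risen, with a median of 0.71. The difference between them was not tested. Over all tested genes with a window, 24.4% of those with the word had risen and 22.4% had fallen, beside 17.8% and 20.1% of those without it. The NRF1 word stood in 2 of 31 subunit genes (6.45%) and in 2 of 7 assembly factor genes (28.6%), beside 3.05% of all genes. Ndufaf4 and Ndufaf5 carried it as a palindrome that reads as the word on both strands, shown here with Ndufa6 and Ndufa8, the subunits that hold it. The window of Ndufaf4 holds the word once more, on the opposite strand and not as a palindrome, its first base at position 2, which is not shown.
Ndufaf4 (chr4:24897944-24898003, plus strand): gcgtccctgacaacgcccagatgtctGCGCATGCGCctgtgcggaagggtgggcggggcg
Ndufaf5 (chr2:140170651-140170680, plus strand): tagtcccgttgGCGCATGCGCctaatagaa
Ndufa6 (chr15:82354341-82354400, minus strand): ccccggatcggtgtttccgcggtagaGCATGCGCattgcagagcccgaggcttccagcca
Ndufa8 (chr2:36049328-36049357, minus strand): tcgctggagacGCATGCGCagatggtaccg
The GABPA word stood in 1 subunit window, that of Ndufs3 (4.31% of all genes), and the ERR word in 1, that of Ndufs5 (1.76% of all genes). A word in a window is a description of its letters and not a site of binding.

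The count of each module stands beside 17.6% risen over all genes and 52.6% over the genes of similar signal to the subunits. Within the N module, 7 of the 9 genes measured had risen, with a median log2 fold change of 0.70, and the 2 that had not are catalytic core subunits. Ndufv1 binds the flavin that takes electrons from NADH. Its probe set 1415967_at gave 3603, 4125 and 3527 in the exposed pools and 3992, 3824.5 and 4429 in the control pools. The groups overlapped, and the log2 fold change was -0.12 ± 0.10 (SE), adjusted p = 0.355. Its sign turned to 0.18 when each array was centred on its median, and under quantile and cyclic loess normalization it was called lower (-0.27, adjusted p = 0.0332, and -0.26, adjusted p = 0.0459). The other probe sets of Ndufv1 differed from this one: 1415966_a_at was higher in the exposed pools (0.37, adjusted p = 0.0231), and 1456015_x_at did not pass (0.22, adjusted p = 0.158).

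Ndufs1, the largest subunit of the enzyme, carries iron-sulfur clusters of the N module. It gave 3097, 3621 and 3219 in the exposed pools and 3068, 3138 and 3537 in the control pools, with overlapping groups and a log2 fold change of 0.03 ± 0.10 (SE), adjusted p = 0.849. By contrast Ndufv2, the third core subunit of the module and also an iron-sulfur protein, gave 11852, 10796 and 11384 in the exposed pools and 7288, 7225.5 and 8212 in the control pools. Every exposed pool lay above every control pool, and the log2 fold change was 0.58 ± 0.08 (SE), adjusted p = 0.00141. Its other probe sets gave 0.90 and 1.03, so that 3 of 3 rose.

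Among the accessory subunits of the N module, Ndufa12 and Ndufa6 rose most. Ndufa12 takes the place at which the assembly factor Ndufaf2 sits earlier in assembly. It gave 13504, 11103 and 12136 in the exposed pools and 5619.6, 6717 and 6453.5 in the control pools, with no overlap and a log2 fold change of 0.97 ± 0.10 (SE), adjusted p = 0.000544. It was read at 1433513_x_at, a probe set that may bind related transcripts. The same holds for Ndufa2, Ndufa3, Ndufa13, Ndufb11 and Ndufc2, also read at sets ending _s_at or _x_at. Ndufa2 and Ndufa13 had no other probe set. Ndufa12 had 2 other probe sets that rose (0.67 and 0.91), and the dim 1425919_at, the only one left without sets of that kind, gave -0.30 (adjusted p = 0.509). Ndufa6, which anchors an acyl carrier protein at the arm, gave 5722, 4349 and 5433 in the exposed pools and 2465, 2395 and 3066 in the control pools, also without overlap (0.97 ± 0.13, SE, adjusted p = 0.00128). Ndufs4, whose loss in mice gives an encephalopathy of the Leigh type, rose less. It gave 3737, 3709.7 and 3569 in the exposed pools and 2676, 2612 and 2994 in the control pools (0.41 ± 0.08, SE, adjusted p = 0.00594), while its probe set 1438166_x_at gave 1.03 (adjusted p = 0.0014) and the dim 1418117_at 0.39 (adjusted p = 0.0629). Ndufv3, Ndufa2 and Ndufa7 rose by 0.88, 0.74 and 0.70 on the log2 scale.

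**Figure D2:**
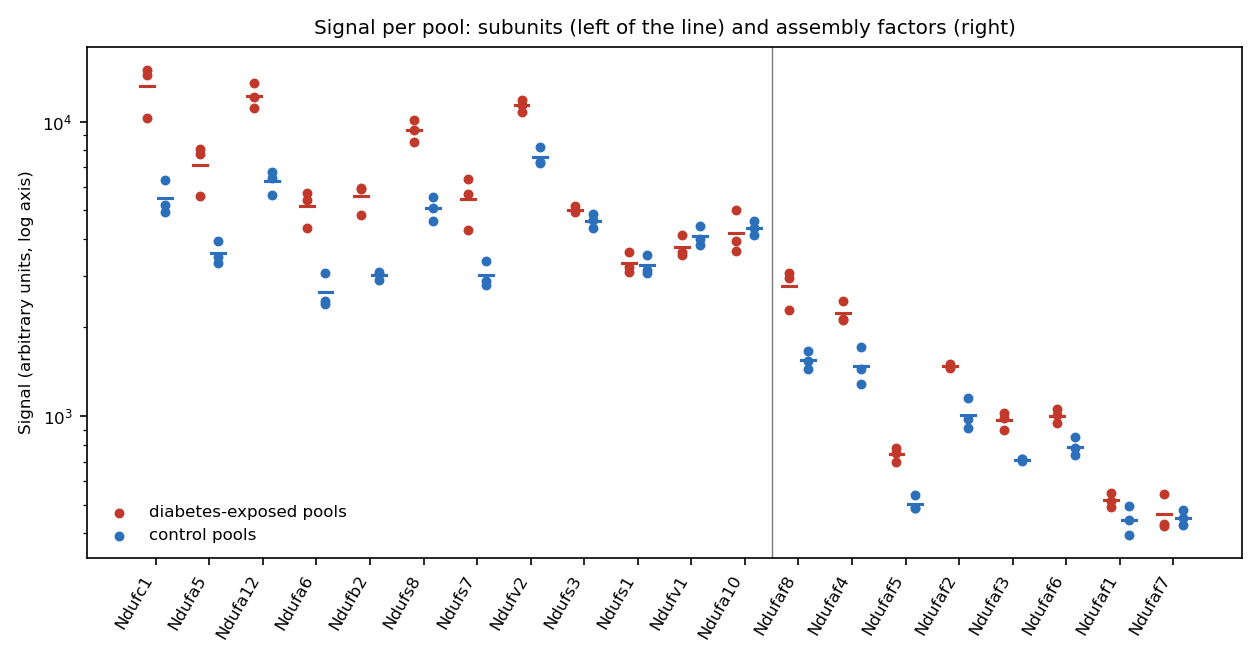
Signal of each pool (arbitrary units, log axis) for the subunits with the largest increases, the core subunits, Ndufa10 and all 8 assembly factors; points are pools, short bars the means of 3 pools, and diabetes-exposed pools stand left of control pools for each gene. The groups are separate for Ndufc1 to Ndufv2 and overlap for Ndufs1, Ndufv1 and Ndufa10; heights are comparable within a gene only, since probe sets differ in their brightness.

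In the Q module 4 of 5 genes measured had risen, with a median of 0.85. Ndufs8 and Ndufs7 hold the iron-sulfur clusters that lead to ubiquinone. Ndufs8 gave 10130.5, 8515 and 9330.1 in the exposed pools and 5077, 4599 and 5546 in the control pools, with no overlap and a log2 fold change of 0.88 ± 0.10 (SE), adjusted p = 0.00069. Of its 6 probe sets 5 rose, by 0.54 to 1.05, and the dim 1434212_at gave 0.36 (adjusted p = 0.152). Ndufs7 gave 5688, 4292 and 6399 in the exposed pools and 2868, 2792.5 and 3352 in the control pools (0.85 ± 0.15, SE, adjusted p = 0.00302), again without overlap, and its other probe set rose by 0.47. Ndufs3, a core subunit without a cofactor, gave 4932, 5001 and 5152 in the exposed pools and 4620.3, 4364 and 4845 in the control pools. Its exposed pools all lay above its control pools, but by little (0.13 ± 0.08, SE, adjusted p = 0.236), and its sign turned under quantile and cyclic loess normalization (-0.070 and -0.046).

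The accessory Ndufa5 rose most in this module. It gave 8075, 5607.5 and 7747.5 in the exposed pools and 3318, 3459 and 3938 in the control pools (0.99 ± 0.14, SE, adjusted p = 0.00148), with the second exposed pool well below the other exposed pools. Ndufa9, at the joint of the peripheral and membrane arms, gave 6436, 6319.6 and 6675 in the exposed pools and 4937, 5026 and 5545 in the control pools (0.33 ± 0.08, SE, adjusted p = 0.0123). Its call was lost without control pool 1 (0.29, adjusted p = 0.0663) and without control pool 2 (0.31, adjusted p = 0.0608). Over both modules of the peripheral arm, 3 of the 6 core subunits measured had risen, with a median of 0.36. That median was 0.65 with arrays centred on their medians, and 0.17 with the spike ratio in the model, where 0 were called. It was 0.096 under quantile and 0.12 under cyclic loess normalization, and both of these called Ndufv1 lower. Over the whole complex, membrane arm included, 25 of the 26 accessory subunits tested among the members had risen, with a median of 0.72. The list of nuclear core subunits holds 7 genes, and the other was not analysed here. The difference between core and accessory subunits was not tested.

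In the proximal membrane arm 7 of 8 genes had risen, with a median of 0.69. Ndufc1, a small membrane subunit, showed the largest increase of all members and was the 1 subunit past 2-fold. It gave 14432, 10290.3 and 14935 in the exposed pools and 4925, 5196 and 6326 in the control pools. The groups stood far apart, at 13219 ± 2549 in the exposed pools and 5482 ± 743 in the control pools (SD, n = 3 each), a fold of 2.39 and a log2 fold change of 1.26 ± 0.15 (SE), adjusted p = 0.000858. Its other probe set, 1416285_at, gave 0.92 (adjusted p = 0.000815). With the spike ratio in the model the increase of Ndufc1 was 0.52 ± 0.14 (SE), adjusted p = 0.123.

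Ndufa3, another small membrane subunit, had pools of little spread. It gave 11258, 9758 and 10554 in the exposed pools and 6012, 6212 and 6387 in the control pools (0.76 ± 0.08, SE, adjusted p = 0.000552). Of its other probe sets 1 rose by 0.83 and the dim 1430149_at gave 0.49 (adjusted p = 0.173). Ndufa1, Ndufc2 and Ndufa13, all membrane subunits, rose by 0.82, 0.70 and 0.68 on the log2 scale, and Ndufa8, which faces the intermembrane space, by 0.37. Ndufs5 read 556.2, 372.7 and 479.3 in the exposed pools and 283.2, 341.1 and 349.4 in the control pools (0.52 ± 0.17, SE, adjusted p = 0.0457). That call stood close to the threshold and was lost when any pool except exposed pool 2 was left out, with log2 fold changes of 0.39 to 0.58 and adjusted p of 0.0594 to 0.157.

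Ndufa10 was the exception in the membrane arm. It is a large accessory subunit related to nucleoside kinases. It gave 3645, 5024 and 3931 in the exposed pools and 4354, 4611 and 4115 in the control pools, so that its highest and its lowest value both came from exposed pools. The log2 fold change was -0.07 ± 0.12 (SE), adjusted p = 0.711, and it turned to 0.23 with arrays centred on their medians, to 0.47 with the spike ratio in the model and to 0.21 without exposed pools 1 and 3. Its dimmer probe set 1418068_at gave 0.59 (adjusted p = 0.0857).

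All 10 genes measured of the distal membrane arm had risen, by 0.46 to 0.88 on the log2 scale, with a median of 0.73. Over all genes 17.6% had risen, and over the genes of similar signal to the subunits 52.6%. Ndufb2 rose most. It gave 5924, 4832 and 5972 in the exposed pools and 2909, 3046 and 3090.3 in the control pools (0.88 ± 0.10, SE, adjusted p = 0.000686). The control pools lay close together and exposed pool 2 was the lowest exposed one. A second probe set of Ndufb2 rose by 0.85, and the dim 1442658_at gave 0.21 (adjusted p = 0.517). Ndufb8 gave 11275, 9046 and 12162.5 in the exposed pools and 6892, 6265 and 7170.5 in the control pools (0.67 ± 0.12, SE, adjusted p = 0.00314), and its dim probe set 1458404_at gave 0.42 (adjusted p = 0.271). Ndufb11, encoded on the X chromosome, rose by 0.87, Ndufb6 by 0.84, and Ndufb7 and Ndufb10, which carry cysteine motifs in the intermembrane space, by 0.83 and 0.71. Ndufb3 rose by 0.75.

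Ndufb9 and Ndufb5 showed how much the size of a change depended on the probe set. Ndufb9 rose by 0.53 at the probe set read for it and by 0.88 at another, and Ndufb5 by 0.46 and by 0.88. Ndufb1 was dim, at 559.7, 527.0 and 391.4 in the exposed pools and 352.7, 377.3 and 257.3 in the control pools (0.58 ± 0.19, SE, adjusted p = 0.0445). Its call was lost when any pool except exposed pool 3 was left out, with log2 fold changes of 0.42 to 0.69 and adjusted p of 0.0523 to 0.149.

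Ndufa4 and Ndufa4l2 are matched by name but are not held to belong to complex I. Ndufa4 is now counted as a subunit of cytochrome c oxidase. It gave 12161.5, 11060.2 and 11427 in the exposed pools and 7059.5, 6482 and 7728 in the control pools, with no overlap and 0.71 ± 0.09 (SE), adjusted p = 0.000923. Its paralog Ndufa4l2, known as a target of the hypoxia response, was dim, at 127.6, 124.3 and 137.6 in the exposed pools and 139.4, 54.2 and 124.3 in the control pools. The groups overlapped (0.41 ± 0.35, SE, adjusted p = 0.408), and without control pool 2, the lowest, the difference was -0.021 (adjusted p = 0.958). Without both genes, 28 of 32 subunits had risen, with a median of 0.71.

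Of the 8 assembly factors 6 had risen, by 0.35 to 0.83 on the log2 scale, and these 6 had no overlap between the groups. These 8 are the numbered Ndufaf genes only. A further list of assembly genes, given below with Ndufab1, had 6 of 14 risen, 1 fallen and a median of 0.11. Over all genes 17.6% had risen, and for 25.9% every exposed pool lay above every control pool. Ndufaf8 and Ndufaf5 act together: Ndufaf5 hydroxylates an arginine of Ndufs7, and Ndufaf8 stabilises Ndufaf5. Ndufaf8 gave 2955, 2300.5 and 3052 in the exposed pools and 1540.3, 1439.9 and 1667 in the control pools (0.83 ± 0.12, SE, adjusted p = 0.00168). Ndufaf5 gave 779.6, 696.4 and 748.4 in the exposed pools and 541.4, 488.0 and 485.9 in the control pools (0.55 ± 0.11, SE, adjusted p = 0.00519). Both rose, and a second probe set of Ndufaf8 gave 0.76 (adjusted p = 0.0125).

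Ndufaf3 and Ndufaf4 form a pair that joins the Q module early. Ndufaf4 gave 2457, 2114.5 and 2138 in the exposed pools and 1289.7, 1441 and 1719 in the control pools (0.60 ± 0.12, SE, adjusted p = 0.00603). Its second probe set rose by 0.31 (adjusted p = 0.0271). Ndufaf3 gave 1029, 983.5 and 896.6 in the exposed pools and 716.3, 713.7 and 703.7 in the control pools (0.44 ± 0.10, SE, adjusted p = 0.00879), with control pools that hardly differed. Ndufaf2, the paralog of Ndufa12 that acts when the N module is added, gave 1502, 1458.5 and 1463 in the exposed pools and 908.3, 980.6 and 1148 in the control pools (0.55 ± 0.11, SE, adjusted p = 0.00505). Ndufaf6, which is needed for the early assembly of the complex, gave 1012, 1056 and 946.9 in the exposed pools and 739.4, 776.9 and 848.2 in the control pools (0.35 ± 0.10, SE, adjusted p = 0.0268). Its call was lost without control pool 1 (0.31, adjusted p = 0.107), without control pool 2 (0.34, adjusted p = 0.092) and without exposed pool 1 (0.35, adjusted p = 0.0781).

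The remaining assembly factors did not pass the test. Ndufaf1, which works on the membrane arm, gave 516.5, 546.8 and 490.8 in the exposed pools and 395.0, 445.1 and 496.4 in the control pools (0.22 ± 0.13, SE, adjusted p = 0.212). It was called higher under median centring, quantile and cyclic loess normalization (0.52, adjusted p = 0.0434, 0.50, adjusted p = 0.0221, and 0.41, adjusted p = 0.0363). Ndufaf7, a methyltransferase of the Q module, gave 423.0, 542.0 and 429.9 in the exposed pools and 426.6, 480.1 and 449.6 in the control pools (0.03 ± 0.14, SE, adjusted p = 0.878). Its groups overlapped, and exposed pool 2 held its highest value.

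Set beside each other, subunits had the larger median change, 0.71 against 0.50 for assembly factors, a difference of 0.21. This order rested on the scaling. With arrays centred on their medians the medians were 1.0 and 0.80, beside 0.30 over all genes. Under quantile normalization they were 0.45 for subunits and 0.62 for assembly factors, beside 0.14 over all genes, and under cyclic loess normalization 0.51 and 0.57, beside 0.08. With the spike ratio in the model they were 0.30 and 0.42, and without exposed pools 1 and 3 they were 0.52 and 0.47. The share of genes that had risen was 29 of 34 subunits and 6 of 8 assembly factors as deposited. The classes also differed in brightness: per pool, the median log2 signal of the subunits lay 2.66 to 3.13 above that of the assembly factors. Genes in the middle range of subunit signals had a median log2 fold change of 0.29, beside 0.00 over all genes. Whether subunits and assembly factors differed, and the part of brightness in this, was not tested.

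**Figure D3:**
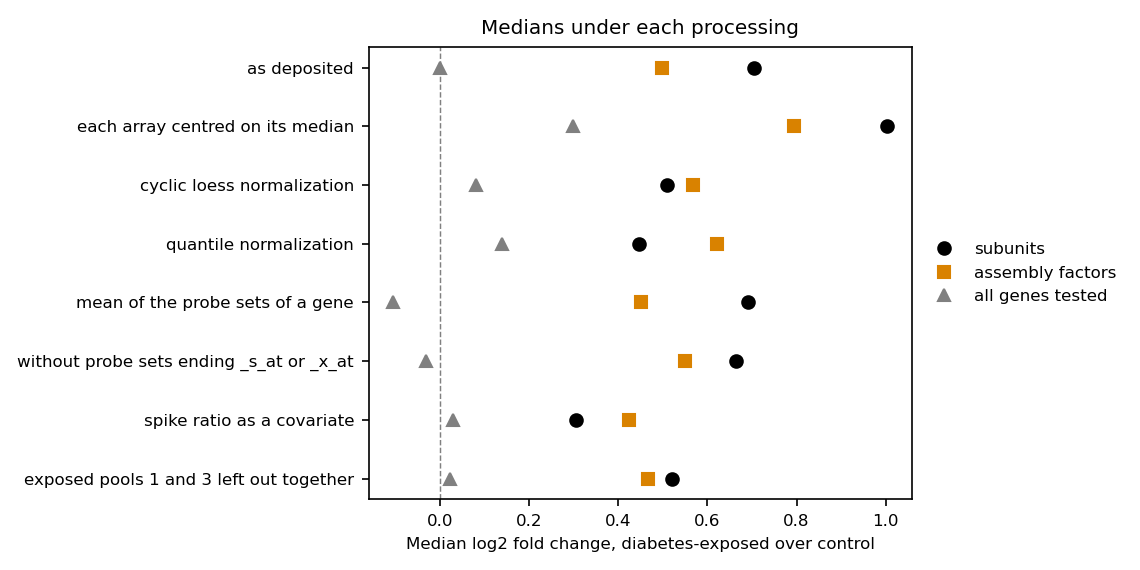
Median log2 fold change, diabetes-exposed over control, over subunits (circles), assembly factors (squares) and all genes tested (triangles) under each way of processing, with 34 subunits and 8 assembly factors except where sets ending _s_at or _x_at are left out. Both medians lie above that of all genes in each row, and the order of circles and squares turns under quantile and cyclic loess normalization and with the covariate.

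The size of the increase differed between the exposed pools. Relative to the control mean, the median log2 signal of the subunits was 0.82, 0.52 and 0.78 in exposed pools 1, 2 and 3 and -0.04, -0.07 and 0.12 in the control pools. The median of the assembly factors was 0.55, 0.47 and 0.44 in the exposed pools and -0.09, -0.02 and 0.11 in the control pools. Exposed pool 2, with the lowest 3' to middle ratio of the exposed pools, was the lowest exposed pool for 27 of 34 subunits and for 4 of 8 assembly factors. It lay above every control pool for 32 subunits. The shares of all genes for which these hold were not counted, so the counts were not read as a trait of complex I. Pools 1 and 3 were also left out, so that pool 2 alone was set against the controls with its spread taken from them. The median log2 fold change was then 0.52 over subunits, 0.47 over assembly factors and 0.02 over all genes. The spread of exposed pools cannot be estimated from 1 pool. With the covariate the smallest adjusted p among members was that of Ndufa3 (0.55 ± 0.12, SE, adjusted p = 0.0636), followed by Ndufa12 (0.71 ± 0.17, SE, adjusted p = 0.0883). Of the 35 member genes that had risen, 34 had a positive estimate in that fit. They were chosen for their rise on these same arrays, so their signs are not an independent check.

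**Figure D4:**
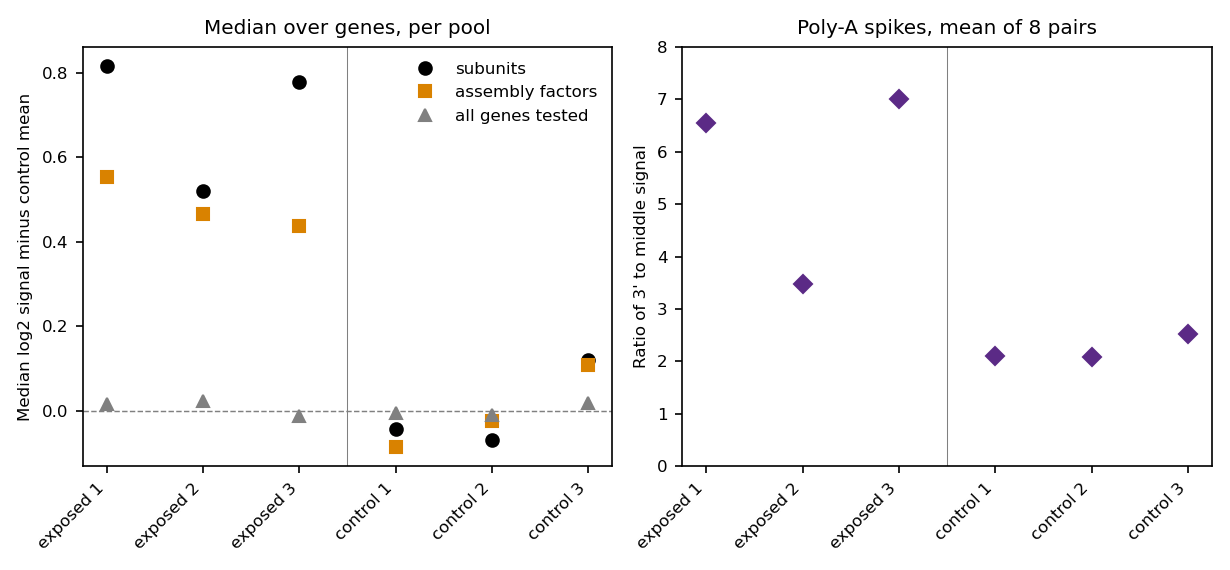
Left, the median log2 signal per pool minus the control mean over subunits (circles), assembly factors (squares) and all genes tested (triangles); right, the mean 3' to middle ratio of the poly-A spikes in the same pools, from 8 pairs of probe sets. The subunit median and the spike ratio are both lowest in pool 2 among the exposed pools, and all genes stay near 0.

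Read by probe set instead of by gene, 56 of 69 subunit probe sets had risen and 0 had fallen, with a median of 0.71. Of the 10 assembly factor probe sets 8 had risen and 0 had fallen, with a median of 0.50. Among all 30025 probe sets 14.4% had risen and 21.8% had fallen, with a median of -0.05. The subunit probe sets that did not pass read Ndufs1, Ndufs3, Ndufv1, Ndufa10 or Ndufa4l2 or were the dim sets named above.

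**Figure D5:**
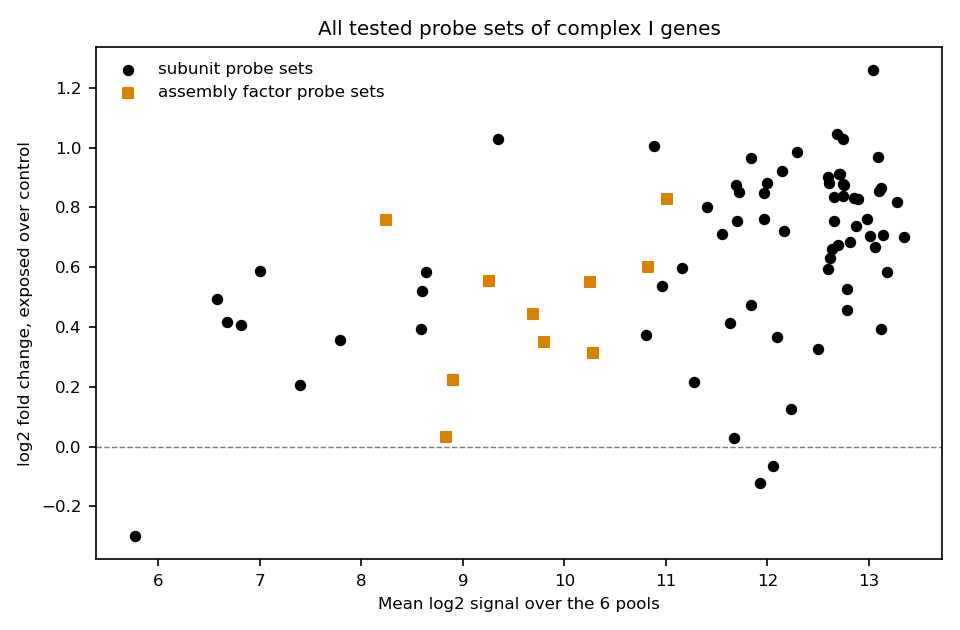
Log2 fold change of every tested member probe set, diabetes-exposed over control, against its mean log2 signal over the 6 pools, for 69 subunit probe sets (circles) and 10 assembly factor probe sets (squares). Subunit values run from -0.30 to 1.26 and assembly factor values from 0.03 to 0.83.

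A further list held 15 genes, of which 14 were measured. It held assembly genes of complex I and also Ndufab1, an acyl carrier protein that is itself an accessory subunit. Of the 14 genes, 6 had risen and 1 had fallen, with a median of 0.11, beside 17.6% risen and 19.9% fallen over all genes. Ndufab1 was among the 6 (0.45 ± 0.09, SE, adjusted p = 0.00499). Dmac1, which assembles the distal membrane arm, gave 4774, 4396 and 4616 in the exposed pools and 3085, 2769.9 and 3262 in the control pools (0.60 ± 0.09, SE, adjusted p = 0.00164). Nubpl, which delivers iron-sulfur clusters to complex I, gave 1620.2, 1515 and 1627 in the exposed pools and 971.1, 997.0 and 1131 in the control pools (0.62 ± 0.10, SE, adjusted p = 0.00204). Both rose without overlap. Tmem126b, a partner of Ndufaf1, was the 1 that fell, with dim signals of 44.0, 122.3 and 98.0 in the exposed pools and 187.8, 162.2 and 178.0 in the control pools (-1.12 ± 0.36, SE, adjusted p = 0.0394). No gene of this list was called lower under median centring, quantile or cyclic loess normalization, and with the spike ratio in the model 0 were called in either direction. Of the subunits encoded by mitochondrial DNA only ND5 was measured. It gave 10944.5, 11834.5 and 10521 in the exposed pools and 11983.5, 14979 and 12480.0 in the control pools (-0.24 ± 0.10, SE, adjusted p = 0.0972), so that every exposed pool lay below every control pool without passing the test.

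Genes of the other respiratory complexes were also higher. Of 39 genes of complexes II to V measured of 55 listed, 31 had risen and 0 had fallen, with a median of 0.54, beside 17.6% risen over all genes and 52.6% over the genes of similar signal to the subunits. The median was 0.84 with arrays centred on their medians, 0.24 under quantile and 0.19 under cyclic loess normalization, 0.20 with the spike ratio in the model and 0.35 without exposed pools 1 and 3. The smallest adjusted p belonged to Uqcrq and Uqcr10, small subunits of complex III. Uqcrq gave 4786, 4822 and 4643 in the exposed pools and 2936.5, 2934 and 3203.5 in the control pools (0.65 ± 0.08, SE, adjusted p = 0.000771). Uqcr10 gave 7236, 6068 and 6761 in the exposed pools and 3753, 3052 and 3826 in the control pools (0.92 ± 0.11, SE, adjusted p = 0.00083). Named after their values were seen, the 8 that did not pass were Uqcrfs1, Sdha, Cyc1, Sdhc, Atp5b, Uqcrc1, Sdhd and Atp5a1, with log2 fold changes of -0.20 to 0.22. Under quantile and cyclic loess normalization 4 genes of this list were called lower, beside 27 and 20 called higher, and with the spike ratio in the model 0 were called. The genes that did not pass include the flavin subunit of complex II and the alpha and the catalytic beta subunit of the ATP synthase.

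Of 13 regulators of respiratory genes measured, 2 had risen and 4 had fallen, with a median of 0.00, beside 17.6% risen and 19.9% fallen over all genes. Tfam, which packages and transcribes mitochondrial DNA, gave 3257, 3340.2 and 3536 in the exposed pools and 2459, 2408 and 2575 in the control pools (0.45 ± 0.08, SE, adjusted p = 0.00335), and Tfb1m, which methylates mitochondrial ribosomal RNA, rose by 0.63 (adjusted p = 0.00282). Pprc1, a coactivator of respiratory genes, gave 1011.5, 1063.5 and 956.8 in the exposed pools and 2044, 2148 and 1905 in the control pools (-1.01 ± 0.09, SE, adjusted p = 0.000324). Yy1 gave 3489.6, 2814 and 3040.3 in the exposed pools and 5171, 4885 and 4777 in the control pools (-0.67 ± 0.10, SE, adjusted p = 0.00147). Both fell without overlap between the groups. Under median centring 5 genes of the list were called higher and 2 lower, and under quantile or cyclic loess normalization 5 higher and 3 lower. With the spike ratio in the model 0 were called higher and 1 lower.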

How the data were processed

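Total RNA of 6 pools, each of 3 embryos, was labelled in 1 cycle and hybridised to Affymetrix Mouse 430 2.0 arrays. Each deposited value is a linear signal intensity of 1 probe set, which the authors computed with GCOS and MAS5 and scaled to a common mean per array. The sources used here give no versions. Such scaling makes each signal relative to the other transcripts of its pool. The arrays' median signals were 74.0 to 78.7 in the exposed pools and 82.2 to 102.8 in the control pools, and the number of arrays limits the precision.

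Log2 was taken without further scaling. The lowest 33.3% of probe sets by mean and 64 array controls were set aside, and the other 30025 were tested with limma 3.58.1 in R 4.3.3 (lmFit, eBayes with a trend), with Benjamini-Hochberg adjustment over all of them. An adjusted p under 0.05 was the threshold for calling a gene risen or fallen, at any fold. Each gene was read at its tested probe set with the highest mean among those with 1 symbol in the platform's table, which gave 13956 genes. The named genes were the nuclear core subunits, all assembly factors, 6 subunits chosen by size of increase and 6 by smallest p, subunits not called, Ndufa4 and Ndufa4l2, and genes whose probe sets differed, as well as the 2 smallest p in each direction of each list of other pathway genes. Ndufs5, Ndufb1, Ndufa9, Ndufb9 and Ndufb5 were singled out after their values were seen, and the remaining subunits are given by their fold changes. Members and lists were chosen with earlier results of these data known. For 3 against 3 pools the smallest two-sided p of an exact permutation test is 0.1. The alternatives were other scalings, a pseudocount of 32, no filter or one of 50%, eBayes without a trend, other ways to read a gene, a replicate block, the spike ratio as a covariate, the methods' t-test and leaving out pools; the regularized test of the methods was not run. The procedure was tested on simulated data with 100 changed probe sets among 30025. It recovered 37 of the 100 at a 2-fold change and 72 at a 4-fold change, with 6 false calls each time. Smaller changes, such as those of most subunits, were not simulated. In the data a far larger share of probe sets was called (14.4% higher and 21.8% lower), so these recovery rates need not hold there. No 2 arrays shared more than 0.366% of their signals. Promoter windows came from RefSeq on GRCm38.p6, and matplotlib 3.10.9 (Python 3.11.15) drew the figures.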

Additional observations from a re-analysis of the deposited data

Results flagged for a closer look

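The poly-A spikes, which no comparison of genes uses, gave a mean ratio of 3' to middle signal of 5.42 over the diabetes-exposed arrays and 2.22 over the control arrays (geometric means of 3 arrays each, 8 pairs of probe sets per array). This was picked out because it is a signal outside the gene measurements that stood above its level in the control pools. Its part in the increase of complex I transcripts was not tested beyond the values given with the ratio as a covariate and without exposed pools 1 and 3.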

How the results depend on the processing

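The count of subunits that had risen, 29 of 34, stayed between 25 and 29 under the other scalings, the pseudocount, the filters and eBayes without a trend. The same held for the mean of a gene's probe sets and the replicate block. Without sets ending _s_at or _x_at 26 of 32 subunits measured had risen, since Ndufa2 and Ndufa13 had no other probe set. With any 1 pool left out the count was between 26 and 28. Under each of these every subunit called higher was among the 29, and Ndufv1 was called lower under quantile and cyclic loess normalization. The exceptions were the spike ratio as a covariate, with 0 subunits and 0 assembly factors risen (20 subunits at an unadjusted p under 0.05), and the methods' t-test, with 0 and 0 after adjustment (27 subunits unadjusted). For the genes that had risen, adjusted p ran over 0.0636 to 0.924 with the covariate and over 0.0523 to 0.181 with the methods' t-test. Among all genes these fits called 11 higher and 241 lower, and 54 higher and 236 lower. No assembly factor was called lower under any alternative run. Of the assembly factors 7 had risen under the other scalings, 5 or 6 with any 1 pool left out, and 2 without exposed pools 1 and 3.

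The subunit median of 0.71 was 1.0 with arrays centred on their medians, 0.45 under quantile and 0.51 under cyclic loess normalization, 0.30 with the covariate, 0.52 without exposed pools 1 and 3, and 0.66 to 0.80 with any 1 pool left out. The assembly factor median of 0.50 was 0.80 with arrays centred, 0.62 under quantile normalization and 0.46 to 0.52 with any 1 pool left out. Centring moved the median of all genes to 0.30, with 4066 genes higher and 1218 lower, and quantile normalization to 0.14, with 3352 and 2147, beside 2461 and 2779 as deposited. The mean of a gene's probe sets moved it to -0.11, with 1883 higher and 3514 lower.

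Among the named genes, signs turned for those given below. Ndufa12 was -0.30 without sets ending _s_at or _x_at, when its 1 remaining probe set is dim. Ndufv1 was 0.18 centred, 0.16 as the mean of its probe sets, 0.074 with the covariate and 0.018 without exposed pools 1 and 3. Ndufa10 was 0.23, 0.26, 0.47 and 0.21 under the same settings. Ndufs1 was -0.10 under quantile and -0.080 under cyclic loess normalization, and Ndufs3 -0.070 and -0.046. With any 1 pool left out, Ndufa10 ran over -0.20 to 0.029, Ndufs1 over -0.038 to 0.091, Ndufaf7 over -0.083 to 0.096 and Ndufa4l2 over -0.021 to 0.66. The causes of these changes were not tested.

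The replicate numbers were not used to pair the pools in the main fit. Deviations of same-numbered pools from their group means correlated at 4.94e-05, 0.0761 and 0.118. Whether same-numbered pools shared handling was not tested. With the replicate number as a block, 28 subunits and 6 assembly factors had risen. Dim probe sets, such as those of Ndufb1, Ndufs5 and Ndufa4l2, limit what the signal over background can show. With 1 array per pool and 3 pools per group the spread between arrays and between embryos cannot be separated.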
